A study of Mus musculus with 18 samples.

Results

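The liver's genes for bile acid synthesis and transport were followed in 18 RNA sequencing libraries of cultured mouse hepatocytes. The 10 genes were taken by symbol from the 18218 genes of the deposited comparison tables, out of 37991 genes in the count files. They were Cyp7a1, Cyp8b1, Cyp27a1, Cyp7b1 and Baat for synthesis and conjugation, Slc10a1, Slco1b2 and Slco1a1 for uptake, Abcb11 for export, and the regulator Nr0b2. The set was chosen with the fold changes of scrambled REVERSIR against PBS in view, in which Slco1b2 was lower. That contrast is therefore given as a description with no test for any of the 10 genes, and Slco1b2 has no test in any contrast that uses its PBS or scrambled REVERSIR libraries.

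All cells were hepatocytes of the outbred mouse strain CD-1, from males, sold frozen for plating. The study used TTR-siRNA, a small interfering RNA, which is a duplex that directs cleavage of a matching mRNA, and REVERSIR, a short oligonucleotide that pairs with the guide strand of an siRNA to block it. The 6 groups of 3 libraries each received the siRNA with TTR REVERSIR, which targets that siRNA, the siRNA with a scrambled REVERSIR, the TTR REVERSIR alone, the scrambled REVERSIR alone, the siRNA alone, or phosphate-buffered saline (PBS). The labels give no dose, no time and no number of mice behind the cells. Nor do they say whether replicates were separate cultures, so p-values measure only the spread between these libraries, which may be technical.

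Bile acids are made in hepatocytes from cholesterol. The classical pathway starts with Cyp7a1, the rate-limiting enzyme, and the alternative pathway starts with Cyp27a1, a mitochondrial sterol hydroxylase. Conjugated bile acids leave the cell through the canalicular pump Abcb11 and return from blood through sodium-dependent Slc10a1 and the sodium-independent carriers Slco1b2 and Slco1a1. Bile acids activate the nuclear receptor Nr1h4 (FXR), which induces Nr0b2 (SHP), a repressor of Cyp7a1 and Cyp8b1.

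Libraries held between 1755819 and 10145265 counts. The scrambled REVERSIR libraries were the shallowest group, at 1755819 to 2896366 counts, against 3871163 to 6753263 in PBS. The 2 mitochondrial ribosomal RNAs took 24.3% and 24.1% of the counts in PBS replicates 1 and 2, against 5.45% in PBS replicate 3 and 1.69% to 9.56% in the other 15 libraries. Ttr, the gene the siRNA targets, averaged 1054 ± 112 CPM (counts relative to library size, scaled by trimmed mean of M-values, TMM) with siRNA and TTR REVERSIR, 226.2 ± 0.691 with siRNA and scrambled REVERSIR, 1265 ± 157 with TTR REVERSIR, 1118 ± 47.6 with scrambled REVERSIR, 242.6 ± 19.1 with siRNA and 1111 ± 96.8 with PBS (SD, n = 3 each). The 6 hepatocyte markers, albumin among them, summed to between 44100 and 57700 CPM in every library. The 7 cholangiocyte markers summed to 12.7 to 21.9 CPM, with Cftr at 0 in 17 libraries and Krt7 at 0 in 13. Their sums were 20.3 to 21.9 CPM in PBS and at most 19.5 CPM in the other groups. Macrophage markers summed to 276 to 381 CPM, of which Cd68 gave 317 on average and Clec4f 4.26. Endothelial markers summed to 40.9 to 62.5 CPM, of which Stab2 gave 41.7 on average. Stellate markers summed to 116 to 156 CPM, of which Reln gave 104 on average. The stellate sums were 116 to 125 CPM with siRNA, 142 to 146 with PBS and 123 to 156 in the other groups. None of the tested markers of any of these lists passed the test in any comparison, but the part that changes in cell makeup play in the results was not tested. In bulk RNA, fewer cells of a type and less RNA per cell cannot be told apart.

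Per length of exon, in TMM-scaled CPM per kilobase (RPKM), the 10 genes spanned a wide range of levels. Cyp27a1 was highest, with a mean of 67.1 RPKM over the 18 libraries, above 93.4% of the 11153 genes tested. Cyp7b1, the oxysterol hydroxylase of the alternative pathway, followed at 18.5 RPKM. Slco1a1 had 12.6 RPKM, Baat 9.17, Slco1b2 6.73, Slc10a1 5.84 and Abcb11 4.75 RPKM, the last above 39.7% of the genes tested. Cyp27a1 exceeded Cyp7b1, and Cyp7b1 exceeded Slco1a1, in 18 of 18 libraries. Neighbours in the middle of the order were closer: Slco1a1 exceeded Baat in 17 libraries, Baat exceeded Slco1b2 in 15, Slco1b2 exceeded Slc10a1 in 16 and Slc10a1 exceeded Abcb11 in 17. Cyp8b1, Nr0b2 and Cyp7a1 averaged 0.459, 0.294 and 0.02 RPKM and did not pass the low-count filter, so 7 of the 10 genes entered the tests.

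**Figure D1:**
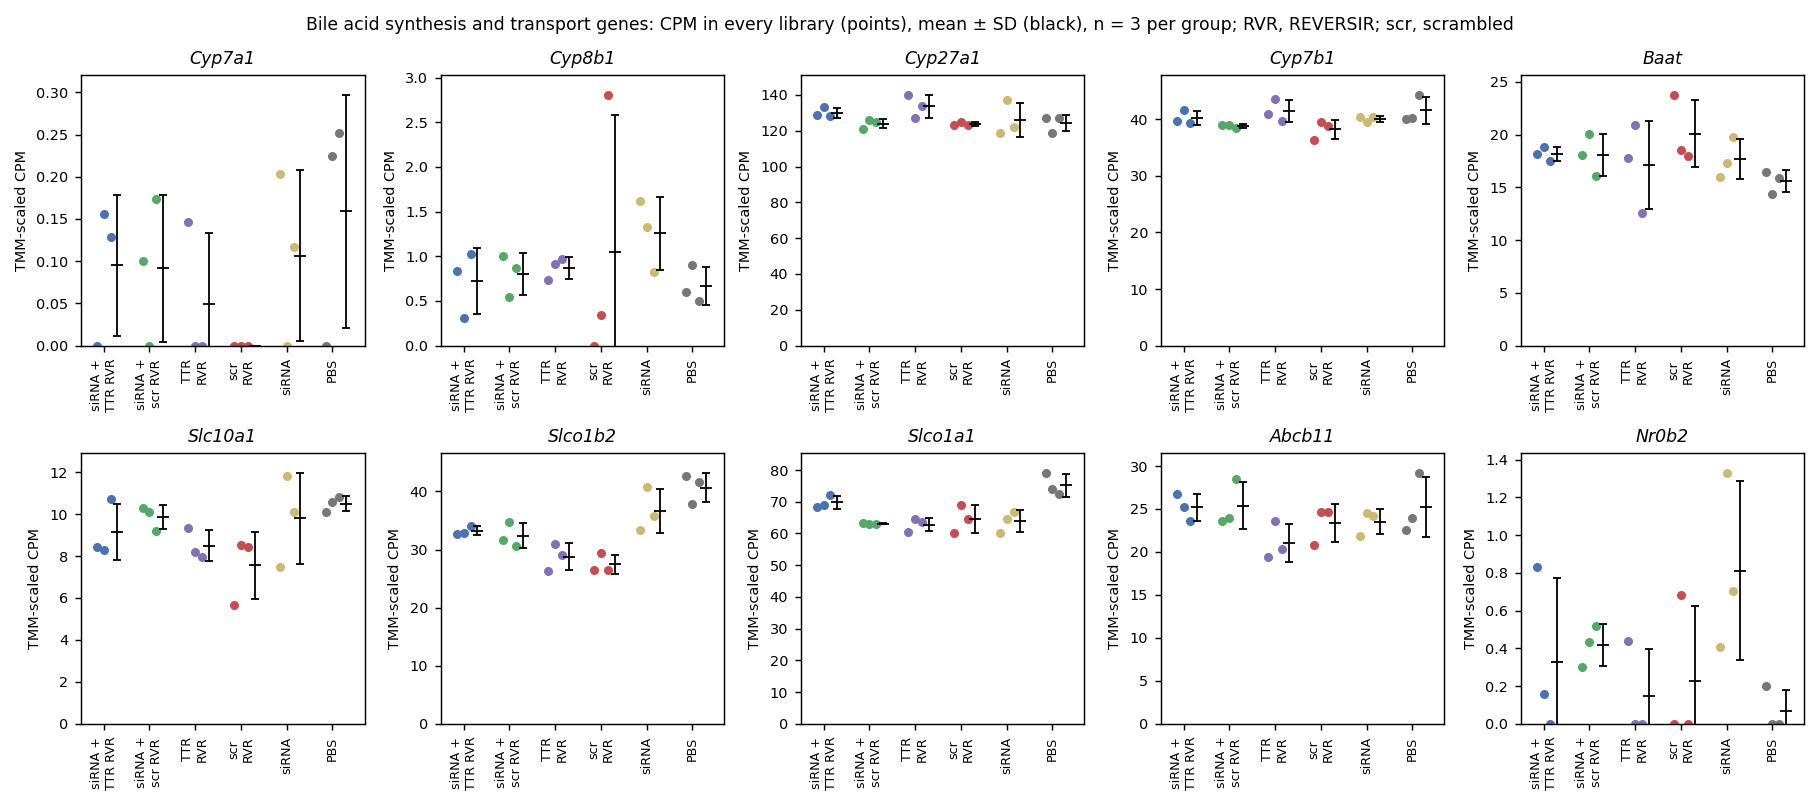
Level of each of the 10 genes in every library, in TMM-scaled CPM on an axis from 0, by group, with points for libraries and black marks for mean and SD (n = 3; RVR, REVERSIR; scr, scrambled). Slco1b2 lies between 37.8 and 42.6 CPM in PBS and between 26.3 and 30.9 CPM in the 6 libraries with either REVERSIR alone, while Cyp27a1 lies between 119 and 140 CPM throughout.

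The entry to the classical pathway was barely detected in these cells. Cyp7a1 (NCBIM37 chromosome 4, 6192759 to 6202780, minus strand) had 9 counts in 101167821 over all libraries, never more than 1 in a library, and 0 in 9 libraries. Its 3 scrambled REVERSIR libraries together held 0 of 7209414 counts, which allows up to 0.416 CPM of the raw library totals. No difference between groups was detectable in Cyp7a1 at this depth.

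Cyp8b1 (chromosome 9, 121823474 to 121825423, minus strand), the hydroxylase that steers synthesis towards cholic acid, had 86 counts in all. Its counts in replicates 1, 2 and 3 were 8, 2 and 8 with siRNA and TTR REVERSIR, 10, 5 and 5 with siRNA and scrambled REVERSIR, 5, 2 and 4 with TTR REVERSIR, 0, 1 and 5 with scrambled REVERSIR, 8, 7 and 7 with siRNA, and 3, 4 and 2 with PBS. Relative to library size the siRNA and PBS groups overlapped, at 1.62, 1.33 and 0.819 CPM with siRNA against 0.595, 0.901 and 0.504 CPM with PBS. Nr0b2 (chromosome 4, 133109291 to 133112451, plus strand) had 40 counts in all and 0 in 7 libraries. It had 2, 7 and 6 counts with siRNA alone against 1, 0 and 0 with PBS. With siRNA and scrambled REVERSIR it had 3, 4 and 3 counts, with siRNA and TTR REVERSIR 8, 1 and 0, with TTR REVERSIR 3, 0 and 0, and with scrambled REVERSIR 0, 2 and 0. The summed Nr0b2 counts were 15 of 17944728 with siRNA and 1 of 16487398 with PBS. These values cover a handful of reads, and counts at this level carry large counting error.

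The alternative pathway gave the steadiest values. Cyp27a1 (chromosome 1, 74760148 to 74784464, plus strand) had 129, 133 and 128 CPM in replicates 1, 2 and 3 with siRNA and TTR REVERSIR, 121, 126 and 125 with siRNA and scrambled REVERSIR, 140, 127 and 134 with TTR REVERSIR, 123, 125 and 123 with scrambled REVERSIR, 119, 137 and 122 with siRNA, and 127, 119 and 127 with PBS. Its coefficient of variation over the 18 libraries was 4.7%, beside 4.24% from counting error alone. Cyp7b1 (chromosome 3, 17971950 to 18143338, minus strand) ranged from 36.3 CPM in a scrambled REVERSIR library to 44.4 CPM in a PBS library, with a coefficient of variation of 4.55% beside 7.53% from counting. Neither gene passed a test, and the groups of both overlapped in most comparisons. Without overlap, both were higher with TTR than with scrambled REVERSIR, with siRNA present and absent. Cyp27a1 was also higher in both TTR REVERSIR groups than in PBS. Cyp7b1 was lower with siRNA and scrambled REVERSIR than with siRNA or PBS, and lower with scrambled REVERSIR than with PBS. Across comparisons, 9.32% to 19.4% of all genes had groups without overlap.

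Baat (chromosome 4, 49502294 to 49519429, minus strand), which joins bile acids to taurine or glycine, had 18.2, 18.8 and 17.5 CPM with siRNA and TTR REVERSIR, 18.1, 20.1 and 16.1 with siRNA and scrambled REVERSIR, 17.8, 20.9 and 12.6 with TTR REVERSIR, 23.8, 18.5 and 18 with scrambled REVERSIR, 16, 17.3 and 19.8 with siRNA, and 16.5, 14.4 and 15.9 with PBS. PBS had the lowest mean, 15.6 ± 1.05 CPM, and scrambled REVERSIR the highest, 20.1 ± 3.25 CPM (SD, n = 3 each). The lowest single library was a TTR REVERSIR replicate, so the spread within that group, 12.6 to 20.9 CPM, covered all other libraries but the one at 23.8 CPM.

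The uptake carrier Slco1b2 (chromosome 6, 141578039 to 141635167, plus strand) takes up bile acids and many drugs and toxins from blood. Slco1b2 had 32.7, 32.9 and 34.1 CPM with siRNA and TTR REVERSIR, 31.6, 34.8 and 30.7 with siRNA and scrambled REVERSIR, 26.3, 30.9 and 29.0 with TTR REVERSIR, 26.5, 29.4 and 26.4 with scrambled REVERSIR, 33.4, 40.8 and 35.8 with siRNA, and 42.6, 37.8 and 41.6 with PBS. The 6 libraries with a REVERSIR alone were all below the other 12 except for 1 siRNA and scrambled REVERSIR library at 30.7 CPM, which lay below 1 TTR REVERSIR library at 30.9. The coefficient of variation was 15.2% over the 18 libraries, 7.17% within groups and 8.5% from counting, where the first value includes the PBS and scrambled REVERSIR libraries that chose the set.

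In the contrast that chose the set, Slco1b2 averaged 27.4 ± 1.69 CPM with scrambled REVERSIR and 40.7 ± 2.52 CPM with PBS (SD, n = 3 each), a fitted log2 fold change of -0.56 ± 0.114 (SE), or 67.8% of PBS. TTR REVERSIR, with 28.7 ± 2.34 CPM, stood at 69.2% of the same PBS libraries, a log2 fold change of -0.53 ± 0.102. Between the 2 REVERSIR oligonucleotides the log2 difference, TTR minus scrambled, was 0.03 with a 95% interval of -0.22 to 0.28. The groups overlapped, so a difference within those bounds was not resolved. Against PBS, Slco1b2 was at 81.6% with siRNA and TTR REVERSIR (log2 fold change -0.29) and 79.8% with siRNA and scrambled REVERSIR (-0.33), while siRNA alone stood at a log2 fold change of -0.15. All these contrasts share the PBS libraries, 2 of which carried the high mitochondrial ribosomal RNA. Against PBS replicate 3 alone, without PBS replicates 1 and 2, the scrambled REVERSIR value was -0.59 and the TTR REVERSIR value -0.56. With all PBS libraries kept but the 2 mitochondrial ribosomal RNAs left out of the fit, these values were -0.563 and -0.529.

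The values of Slco1b2 against PBS moved with the scaling. Scaling by library totals alone, without TMM, moved the median of all genes by 0.29 to 0.331 log2 against PBS, and Slco1b2 then stood at -0.27 with scrambled REVERSIR and -0.21 with TTR REVERSIR. Under that scaling siRNA alone stood at 0.18 and siRNA with TTR REVERSIR at 0.04, the opposite sign to the TMM values. A ratio to Cyp27a1 counts in the same library, chosen after seeing the data, uses no library scaling. It carries any change in Cyp27a1 itself, which averaged 134 CPM with TTR REVERSIR, 124 with PBS and 123 with scrambled REVERSIR. A higher Cyp27a1 lowers the ratio. Per 100 Cyp27a1 counts, Slco1b2 had 25.6 ± 0.939 with siRNA and TTR REVERSIR, 26.2 ± 1.54 with siRNA and scrambled REVERSIR, 21.6 ± 2.81 with TTR REVERSIR, 22.2 ± 1.11 with scrambled REVERSIR, 29.1 ± 0.838 with siRNA and 32.8 ± 0.88 with PBS (SD, n = 3 each). The PBS ratios, 31.9 to 33.7, lay above all others, and the siRNA ratios, 28.2 to 29.8, lay above every library with a REVERSIR, where the highest was 27.7.

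**Figure D2:**
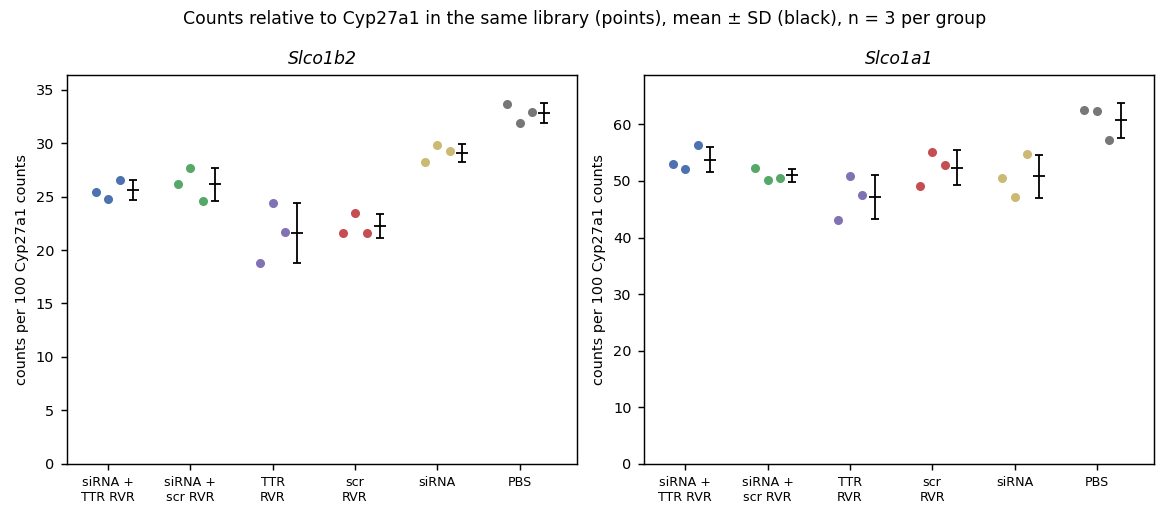
Slco1b2 (left) and Slco1a1 (right) counts per 100 Cyp27a1 counts of the same library, on axes from 0, by group, with points for libraries and black marks for mean and SD (n = 3; RVR, REVERSIR; scr, scrambled). PBS has the highest mean of both ratios, 32.8 for Slco1b2 and 60.7 for Slco1a1.

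Slco1a1 (chromosome 6, 141855803 to 141895483, minus strand), an organic anion carrier known for its high level in male mouse liver, lies 220635 bases beyond the end of Slco1b2. It had 68.3, 69.0 and 72.1 CPM with siRNA and TTR REVERSIR, 63.3, 63.1 and 63.0 with siRNA and scrambled REVERSIR, 60.4, 64.6 and 63.5 with TTR REVERSIR, 60.2, 69.0 and 64.7 with scrambled REVERSIR, 60.0, 64.7 and 66.8 with siRNA, and 79.1, 73.9 and 72.4 with PBS. Every PBS library exceeded all 15 others. Slco1a1 belongs to a cluster of related carriers, and the labels do not say how reads shared between copies were counted. Per 100 Cyp27a1 counts, Slco1a1 had 53.8 ± 2.21 with siRNA and TTR REVERSIR, 51.0 ± 1.14 with siRNA and scrambled REVERSIR, 47.2 ± 3.89 with TTR REVERSIR, 52.3 ± 3.08 with scrambled REVERSIR, 50.8 ± 3.77 with siRNA and 60.7 ± 3.05 with PBS (SD, n = 3 each).

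The stretches upstream of these 2 carriers, and those of the most and one of the least abundant cytochrome P450 genes of the set, are shown for what lies before genes at such different levels. Each is the 250 bases before the annotated start in RefSeq (GRCm38.p6, a later build than that of the counts), 5′ to 3′ on the gene's own strand. Capitals mark TATAAA, the TATA box, AGGTCA, a nuclear receptor half-site, and GTTAAT, an HNF1 half-site, searched on both strands, so TTTATA and TGACCT are matches on the other strand. Slco1b2 is at chr6:141629268-141629517 (plus), Slco1a1 at chr6:141946963-141947212 (minus), Cyp27a1 at chr1:74713285-74713534 (plus) and Cyp8b1 at chr9:121916306-121916555 (minus).
Slco1b2: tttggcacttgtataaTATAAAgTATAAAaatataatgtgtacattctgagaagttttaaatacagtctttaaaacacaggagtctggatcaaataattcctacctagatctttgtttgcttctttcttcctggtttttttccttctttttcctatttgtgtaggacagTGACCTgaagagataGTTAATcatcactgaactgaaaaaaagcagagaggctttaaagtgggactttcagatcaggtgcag
Slco1a1: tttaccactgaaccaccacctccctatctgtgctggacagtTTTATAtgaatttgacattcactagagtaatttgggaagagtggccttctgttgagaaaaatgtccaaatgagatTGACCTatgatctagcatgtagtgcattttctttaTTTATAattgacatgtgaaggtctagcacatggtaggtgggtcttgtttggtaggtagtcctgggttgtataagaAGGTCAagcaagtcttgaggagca
Cyp27a1: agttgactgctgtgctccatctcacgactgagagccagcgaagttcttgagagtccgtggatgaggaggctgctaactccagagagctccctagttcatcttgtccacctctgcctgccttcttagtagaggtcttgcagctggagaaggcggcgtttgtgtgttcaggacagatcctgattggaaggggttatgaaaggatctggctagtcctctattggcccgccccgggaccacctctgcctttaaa
Cyp8b1: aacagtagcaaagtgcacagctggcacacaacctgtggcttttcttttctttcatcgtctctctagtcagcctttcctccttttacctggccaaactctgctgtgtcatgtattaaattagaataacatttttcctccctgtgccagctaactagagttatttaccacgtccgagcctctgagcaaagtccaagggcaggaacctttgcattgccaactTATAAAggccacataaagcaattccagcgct

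Both carriers held AGGTCA, which 14% of all 32851 such upstream stretches of 250 bases hold, Slco1b2 once and Slco1a1 at 2 places, and so did Abcb11 and 1 of the 2 entries of Slc10a1. Slco1b2 also held GTTAAT, present in 6.43% of them, 66 bases before the start. TATAAA, in 12.4% of them, stood 31 bases before the start of Cyp8b1, 28 bases before that of Nr0b2, and farther out in both carriers and in the other Slc10a1 entry. Cyp27a1 had none of the 3 motifs in this window. Promoter entries matched 7 of the 10 genes, and Cyp7a1, Cyp7b1 and Baat had none. A match is a description of letters and was not related to the levels.

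Slc10a1 (chromosome 12, 82054172 to 82068971, minus strand), the sodium-dependent carrier for conjugated bile acids, had 8.44, 8.29 and 10.7 CPM with siRNA and TTR REVERSIR, 10.3, 10.1 and 9.2 with siRNA and scrambled REVERSIR, 9.34, 8.19 and 7.97 with TTR REVERSIR, 5.68, 8.54 and 8.43 with scrambled REVERSIR, 7.5, 11.8 and 10.1 with siRNA, and 10.1, 10.6 and 10.8 with PBS. The lowest library held 15 Slc10a1 counts, and its coefficient of variation of 16.1% was close to the 16.3% that counting gives. In the contrast that chose the set, Slc10a1 was at 71.4% of PBS with scrambled REVERSIR, a log2 fold change of -0.49 ± 0.22 (SE).

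Abcb11 (chromosome 2, 69076339 to 69180671, minus strand), the bile salt export pump, had 26.8, 25.2 and 23.6 CPM with siRNA and TTR REVERSIR, 23.6, 24.0 and 28.5 with siRNA and scrambled REVERSIR, 19.4, 23.6 and 20.3 with TTR REVERSIR, 20.8, 24.6 and 24.7 with scrambled REVERSIR, 21.9, 24.5 and 24.2 with siRNA, and 22.6, 23.9 and 29.2 with PBS. TTR REVERSIR had the lowest mean, 21.1 ± 2.24 CPM (SD, n = 3). Its libraries at 19.4 and 20.3 CPM lay below all libraries of the other groups, while its library at 23.6 CPM reached their lower libraries. The exons of Abcb11 overlap Gm13613 and the pseudogene Gm13614 on the other strand, which held 0 and 3 counts.

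The comparisons that share no library with the one that chose the set ask what a REVERSIR, or the siRNA, adds to cells that carry the other. By edgeR's quasi-likelihood test with Benjamini-Hochberg adjustment over 11153 genes, none of the 7 tested genes passed 0.05 in any of these 4 comparisons. None was called by DESeq2 either. DESeq2 gave no adjusted p to Slco1a1 and Slco1b2 in siRNA with TTR REVERSIR against siRNA, so it could not call them there. It can leave genes of low mean count out of its adjustment. The genes with fewer counts than Slco1a1, all of the 7 but Cyp27a1, may therefore lack one there too. For siRNA with scrambled REVERSIR against siRNA, 0 of 7 passed beside 0.0% of all genes, with 0 at an unadjusted p under 0.05. The smallest p belonged to Slco1b2, at 32.4 ± 2.13 CPM with siRNA and scrambled REVERSIR and 36.7 ± 3.76 with siRNA (SD, n = 3 each). Its log2 fold change was -0.17 with an interval of -0.36 to 0.01 (edgeR adjusted p = 1.0). Abcb11 had a log2 fold change of 0.09 there (edgeR adjusted p = 1.0).

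For siRNA with TTR REVERSIR against siRNA, 0 of 7 passed beside 0.00897% of all genes, with 0 at an unadjusted p under 0.05. Slco1a1 averaged 69.8 ± 1.99 CPM with both and 63.8 ± 3.49 with siRNA (SD, n = 3 each), a log2 fold change of 0.12 (edgeR adjusted p = 0.842). Its groups did not overlap, as was so for 13.3% of all genes. Slco1b2 stood at -0.14 with an interval of -0.33 to 0.04 (edgeR adjusted p = 0.88). For siRNA with TTR REVERSIR against siRNA with scrambled REVERSIR, again 0 of 7 passed beside 0.00897% of all genes, with 1 at an unadjusted p under 0.05, where 2.17% of all genes stood. That was Slco1a1, with a log2 fold change of 0.14, an interval of 0.01 to 0.28 and an edgeR adjusted p of 1.0. It was higher in each of the 3 libraries with TTR REVERSIR, where 9.32% of all genes had groups without overlap. Cyp27a1 stood at 0.07 and Slco1b2 at 0.03, where Slco1b2 had an interval of -0.15 to 0.21, each with an edgeR adjusted p of 1.0.

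Adding the siRNA to TTR REVERSIR gave 3 of 7 genes an unadjusted p under 0.05, and 0 of 7 passed adjustment beside 0.0% of all genes. At an unadjusted p under 0.05 were 4.44% of all genes tested. Abcb11 averaged 25.2 ± 1.61 CPM with siRNA and TTR REVERSIR and 21.1 ± 2.24 with TTR REVERSIR (SD, n = 3 each), a log2 fold change of 0.29 with an interval of 0.05 to 0.54 (edgeR adjusted p = 1.0). Slco1b2 had a log2 fold change of 0.24 with an interval of 0.03 to 0.44 (edgeR adjusted p = 1.0), higher in each of the 3 libraries that also had siRNA. Slco1a1 had 0.16 with an interval of 0.01 to 0.31 (edgeR adjusted p = 1.0), also without overlap. Such separation was found for 9.32% to 19.4% of all genes across comparisons, with this comparison near the lower bound. The median log2 fold change of the 7 genes was 0.12, beside 0.00 over all genes.

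Set against scrambled REVERSIR alone, 6 genes were tested. With siRNA and scrambled REVERSIR, 0 of 6 passed by edgeR beside 0.0179% of all genes, and 0 had an unadjusted p under 0.05 or passed by DESeq2. DESeq2 gave no adjusted p to Slc10a1 and Baat there, so it could not call them. Slc10a1 averaged 9.87 ± 0.587 CPM with both and 7.55 ± 1.62 with scrambled REVERSIR (SD, n = 3 each). Its log2 fold change was 0.41 with an interval of -0.02 to 0.84 (edgeR adjusted p = 0.816). The groups had no overlap, as was so for 14.5% of all genes. Baat stood at -0.15 (edgeR adjusted p = 0.922), and at 0.000327 without scrambled REVERSIR replicate 1. Slco1b2, not tested, stood at 0.24. With TTR REVERSIR against scrambled REVERSIR, 0 of 6 passed by edgeR beside 0.0179% of all genes, and again 0 had an unadjusted p under 0.05 or passed by DESeq2. Baat had no adjusted p from DESeq2 there, so it could not be called. The same may hold for Slc10a1 and Abcb11. Cyp27a1 stood at 0.12 and Baat at -0.28 (edgeR adjusted p = 0.731 for Cyp27a1 and 0.757 for Baat).

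Against PBS, Slco1a1 had the smallest p of the 6 tested genes in each of 4 comparisons, none of which it passed. These share the PBS libraries and are not independent of each other. With siRNA, 0 of 6 passed by edgeR beside 2.62% of all genes, with 1 at an unadjusted p under 0.05, where 20.1% of all genes stood. Slco1a1 averaged 63.8 ± 3.49 CPM with siRNA and 75.1 ± 3.56 with PBS (SD, n = 3 each), a log2 fold change of -0.23 ± 0.071 (SE, edgeR adjusted p = 0.0736). Baat stood at 0.20 (edgeR adjusted p = 0.487). With TTR REVERSIR, 0 of 6 passed beside 0.699% of all genes, with 2 at an unadjusted p under 0.05, where 16.4% of all genes stood. Slco1a1 stood at -0.27 ± 0.074 (SE, edgeR adjusted p = 0.0784) and Abcb11 at -0.29 ± 0.128 (edgeR adjusted p = 0.27).

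With siRNA and scrambled REVERSIR against PBS, 0 of 6 passed by edgeR beside 0.61% of all genes, with 1 at an unadjusted p under 0.05, where 17.7% of all genes stood. Slco1a1 stood at -0.25 ± 0.069 (SE, edgeR adjusted p = 0.072). Baat stood at 0.23 (edgeR adjusted p = 0.429). With siRNA and TTR REVERSIR, 0 of 6 passed beside 0.789% of all genes, with 0 at an unadjusted p under 0.05, and Slco1a1 stood at -0.11 and Baat at 0.22 (edgeR adjusted p = 0.428 for Slco1a1 and 0.454 for Baat). DESeq2 called 0 of the 6 in each of the 4, but gave Abcb11 no adjusted p in TTR REVERSIR against PBS and could not call it there. Baat and Slc10a1, with fewer counts than Abcb11, may lack one there too. Without PBS replicate 3, the PBS library with low mitochondrial ribosomal RNA, Slco1a1 passed in 3 of them, at -0.26 with siRNA (edgeR adjusted p = 0.0292), -0.30 with TTR REVERSIR (0.0217) and -0.28 with siRNA and scrambled REVERSIR (0.0192). At that setting 1365, 978 and 1142 of 11419 genes passed in these 3 comparisons. Without PBS replicates 1 and 2 it stood at -0.17, -0.21 and -0.19. Scaled by library totals alone, Slco1a1 changed sign, to 0.09, 0.05 and 0.06.

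In scrambled REVERSIR against PBS, where 0.421% of all genes passed, the fitted log2 fold change was negative for 6 of the 7 genes and positive for Baat, at 0.38. Slco1a1 stood at -0.22, Cyp7b1 at -0.12, Abcb11 at -0.11 and Cyp27a1 at -0.00438. The median of the 7 was -0.12, beside 0.00 over all genes. Nothing is read from these values, since the contrast chose the set.

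**Figure D3:**
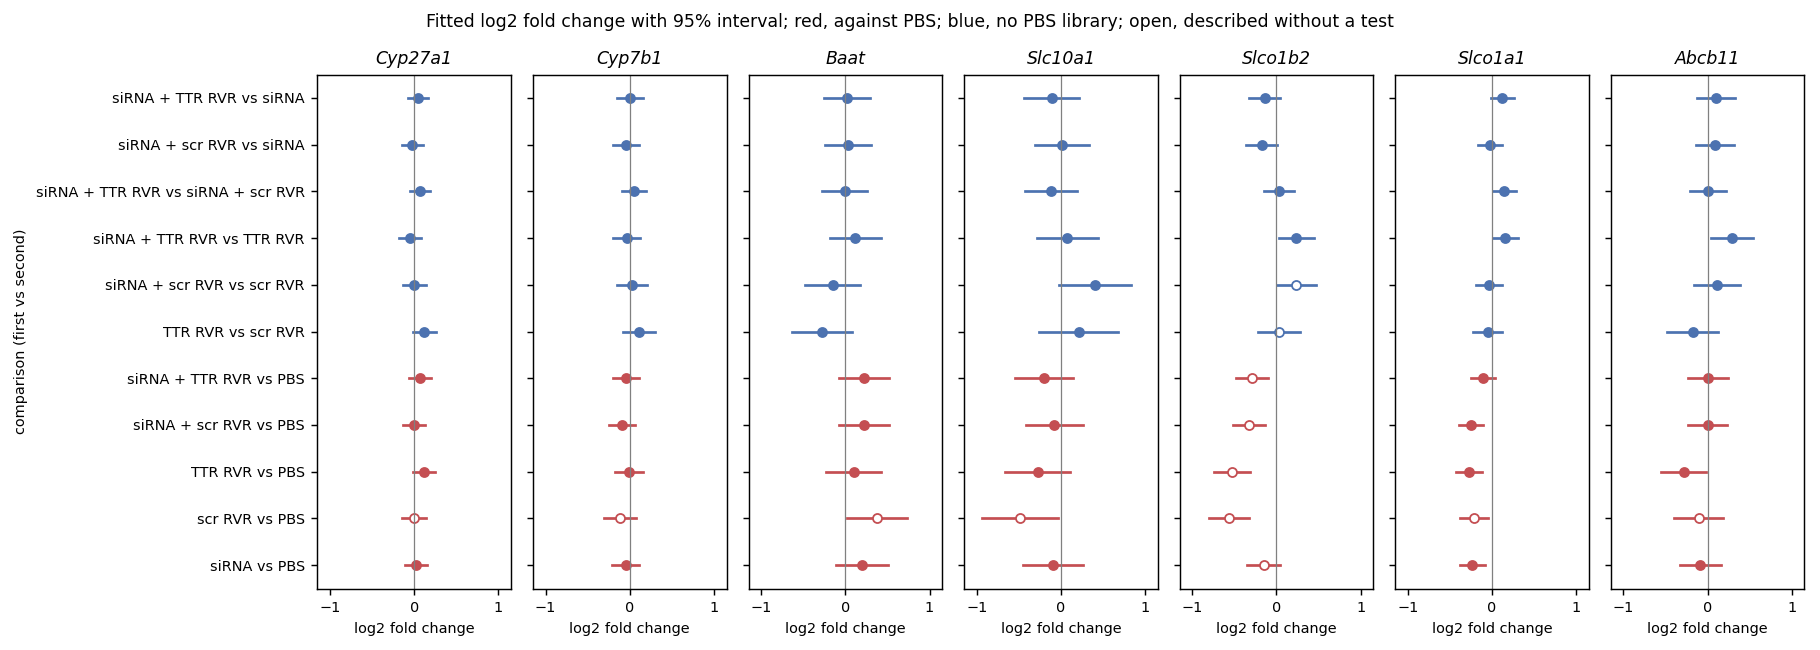
Fitted log2 fold change of the 7 genes that passed the low-count filter, in each comparison, with 95% intervals from the edgeR fit, where values above 0 are higher in the first group named and open symbols mark values with no test. Slco1b2 stands at -0.56 in scrambled REVERSIR against PBS and at -0.53 in TTR REVERSIR against PBS, while no tested value passed the adjusted threshold.

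The authors' deposited table for scrambled REVERSIR against PBS gives Slco1b2 a log2 fold change of -0.402, and the authors' deposited table for TTR REVERSIR gives -0.398. Both are nearer 0 than the values fitted here from the counts, which were -0.562 and -0.528 in the DESeq2 refit too. The cause of that gap was not tested. For Slco1a1, the authors' deposited table for siRNA with scrambled REVERSIR against PBS gives -0.22 with an adjusted p of 0.0438, below the threshold that the edgeR fit missed. Against PBS, the authors' deposited tables give Slco1a1 adjusted p-values of 0.0624 with siRNA, 0.0737 with TTR REVERSIR and 0.484 with siRNA and TTR REVERSIR. For Nr0b2, the authors' deposited table for siRNA against PBS gives no adjusted p.

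Around the 10 genes, 39 further bile acid genes were listed, 13 each for synthesis, transport and regulation, and 32 passed the low-count filter. Most of the remaining machinery was present. Per length, Cyp2c70, which makes the muricholic acids of mice, averaged 438 RPKM, the peroxisomal thiolase Scp2 212 and the bile acid coenzyme A ligase Slc27a5 54.4. Among transporters, the canalicular pump Abcc2 had 32.5 RPKM and the basolateral pump Abcc3 38.1, while Slc51a had 0 counts in all libraries. Among regulators, Hnf4a had 72.2 RPKM and Nr1h4, the receptor upstream of Nr0b2, 10.8 RPKM, while Gpbar1 had 0 counts in all libraries. The carrier Slc10a2, known for uptake in ileum and cholangiocytes, averaged 18.4 RPKM.

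**Figure D4:**
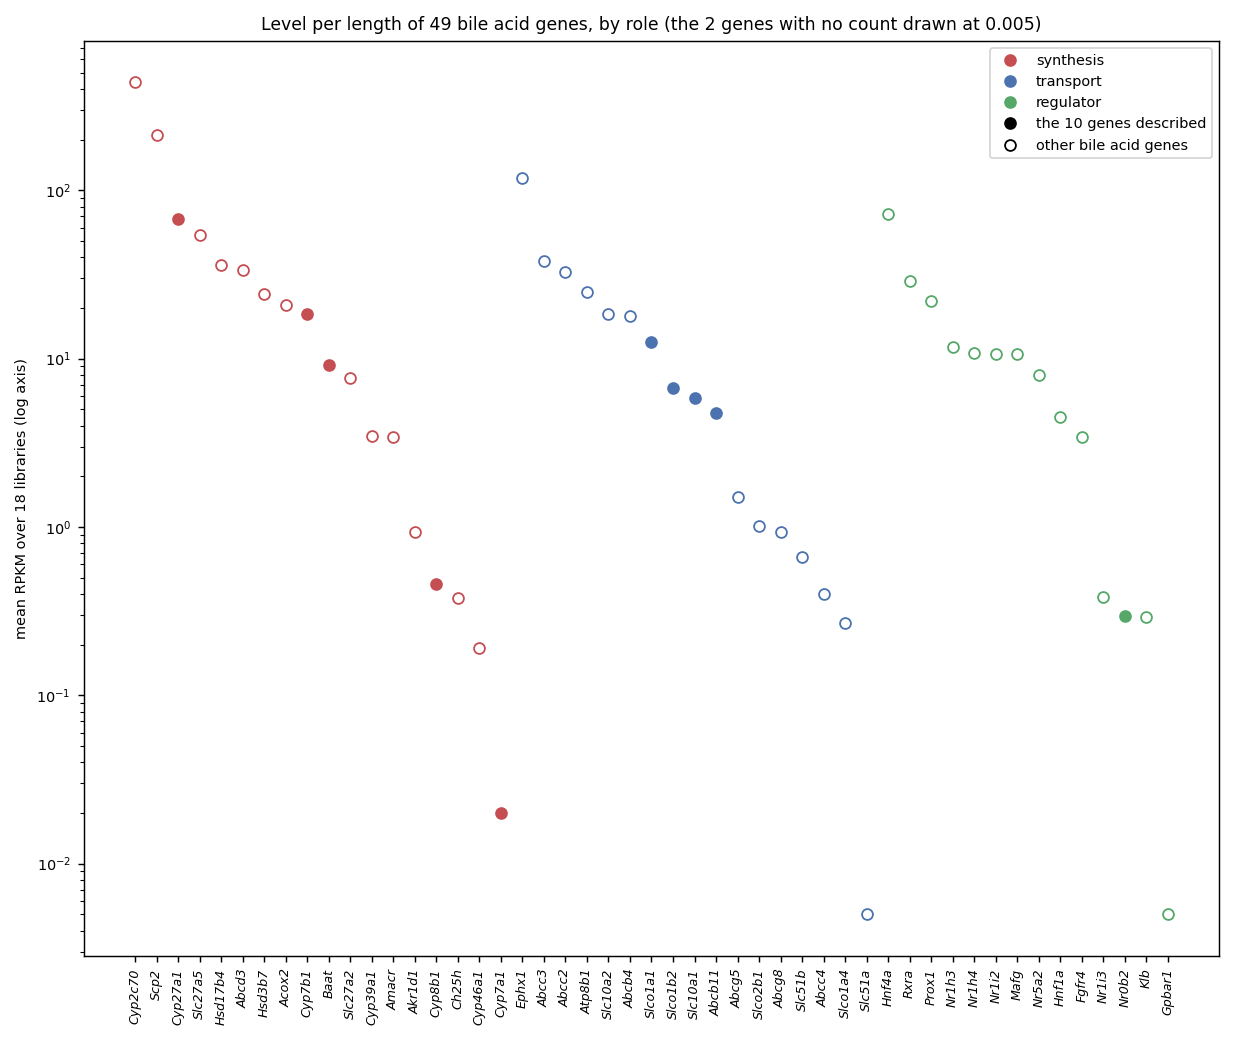
Mean level over the 18 libraries of the 10 genes and the 39 further bile acid genes, in RPKM on a log axis, grouped by role, with the 2 genes that had no count drawn at 0.005. Cyp2c70 is highest at 438 RPKM, and Cyp7a1 averages 0.02 RPKM.

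Of these 32 genes, 1 rose and 0 fell in siRNA against PBS, and 0 passed in the other 9 tested comparisons by edgeR or DESeq2, with 0 to 4 genes in each at an unadjusted p under 0.05, where 2.17% to 17.7% of all genes stood. The 1 was Nr1h3 (LXRα), the oxysterol receptor that induces Cyp7a1 in rodents. Nr1h3 had 31.8, 38.7 and 30.1 CPM with siRNA and 21.2, 23.0 and 25.7 CPM with PBS, with no overlap, as for 19.4% of all genes. Its log2 fold change was 0.52 ± 0.127 (SE, edgeR adjusted p = 0.0308), beside 2.62% of all genes called. The call was lost when any of 5 of the 6 libraries compared was left out, PBS replicate 3 excepted, with adjusted p between 0.0504 and 0.245, and in a fit of the compared groups alone (adjusted p = 0.0818). Against PBS, Nr1h3 stood at 0.39 with siRNA and TTR REVERSIR, 0.36 with siRNA and scrambled REVERSIR, and 0.39 with TTR REVERSIR (edgeR adjusted p = 0.106, 0.14 and 0.149). Where the siRNA was added to a REVERSIR, Nr1h3 stood at 0.00316 against TTR REVERSIR (edgeR adjusted p = 1.0) and at -0.04 against scrambled REVERSIR (edgeR adjusted p = 0.988). DESeq2 gave no adjusted p to some of the 32 genes and could not call them there. Among these were Nr1h3 and Akr1d1 in TTR REVERSIR against PBS, and Abcc4 in siRNA with scrambled REVERSIR against scrambled REVERSIR.

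As a description over the 18 libraries, the genes whose log2 CPM was most like that of Slco1b2, among 8479 genes whose mean log2 CPM was 3 or more, were Cyp3a25, Car3, Ptpn2, Fabp1 and Celf2. Cyp3a25 had r = 0.866 and rho = 0.847, Car3 0.813 and 0.866, Ptpn2 0.791 and 0.744, Fabp1 0.768 and 0.775, and Celf2 0.758 and 0.707 (Pearson's r, then Spearman's rho). The libraries share groups and scaling, so these values also carry the differences between PBS and the other groups. Cyp3a25 averaged 37.9 ± 1.69 CPM with siRNA and TTR REVERSIR, 35.5 ± 2.27 with siRNA and scrambled REVERSIR, 35.0 ± 2.82 with TTR REVERSIR, 33.1 ± 0.635 with scrambled REVERSIR, 37.7 ± 4.22 with siRNA and 43.8 ± 3.06 with PBS (SD, n = 3 each). Of the 10 genes, Slc10a1 had r = 0.682 with Slco1b2, at rank 25, and Slco1a1 r = 0.663, at rank 31. Abcb11 had 0.415, Cyp7b1 0.38, Cyp27a1 -0.0725 and Baat -0.274.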

How the data were processed

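Per the labels, total RNA of 18 hepatocyte samples was sequenced. The authors deposited raw gene counts per library and 5 tables of treated groups against PBS, made with STAR alignment to NCBIM37 and DESeq2 per the submitters' processing notes. Those deposited tables hold a mean normalised signal per gene, log2 fold changes with their errors, a test statistic (score), and p-values. The counting tool, its strand setting and versions: not given in the sources used here. Exon lengths and positions came from GENCODE vM1 on NCBIM37, promoters from RefSeq GRCm38.p6.

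The deposited counts of all 18 libraries were fitted in 1 model with group as its only term, by edgeR 4.0.16 quasi-likelihood tests after filterByExpr and TMM scaling, with Benjamini-Hochberg adjustment over 11153 genes and a threshold of 0.05. All fits ran in R 4.3.3, with limma 3.58.1 installed and no limma fit among the alternatives. The alternatives were edgeR refits and the Wald test of DESeq2 1.42.0. Log2 CPM used a prior count of 2, and the limit for 0 was 3 counts. Counting limits cover counting error only.

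The members and lists were chosen with earlier results of these data known. All 10 members are named. In each tested comparison, members past the threshold get a fold change, or else the 2 with the smallest p, and Slco1b2 always. Further bile acid genes are named where they passed. Others were named for level, after their values were seen. The 5 genes most like Slco1b2 are those of highest r. Same-numbered libraries of different groups did not deviate together (45 pairs, r of -0.148 to 0.287), so numbers were not taken as pairs. Replicates differed beyond sampling noise (chi-square per gene of 2.24 to 98), so none was counted as a duplicate.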

Additional observations from a re-analysis of the deposited data

Results flagged for a closer look

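For some genes of the set, the 3 libraries of a treated group all lay below the mean of their comparison group in one setting and all above it in another. None of the 10 genes passed a test in these comparisons, and of all 11153 genes 10.5% to 13.7% showed this pattern or its mirror in each pair of settings. These differences of mean log2 CPM were not tested, and several restate the same 4 groups. For TTR REVERSIR, Slco1a1 differed by -0.386 without against with siRNA (-0.256 without, 0.13 with) and Abcb11 by -0.346 (-0.25 without, 0.096 with). For siRNA, alone against with TTR REVERSIR, Slco1a1 differed by -0.386 (-0.234 alone, 0.151 with) and Abcb11 by -0.346 (-0.0933 alone, 0.253 with). For siRNA, alone against with scrambled REVERSIR, Abcb11 differed by -0.207 (-0.0933 alone, 0.114 with) and Cyp7b1 by -0.0726 (-0.05 alone, 0.0226 with). For siRNA, with scrambled against with TTR REVERSIR, Slco1a1 differed by -0.182 (-0.0312 with scrambled, 0.151 with TTR). PBS, the group behind several of these values, held the 2 libraries of high mitochondrial ribosomal RNA, whose part in these differences was not tested.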

How the results depend on the processing

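Of 388 alternative values of the named log2 fold changes, 377 kept their sign and 11 changed it, and of 134 alternative counts of genes called, 127 stayed at 0. The counts by DESeq2 take a gene with no adjusted p as not called. Scaled by library totals alone, 2 genes passed in siRNA against PBS, 1 in TTR REVERSIR against PBS, 2 in siRNA with scrambled REVERSIR against PBS and 2 in siRNA with TTR REVERSIR against PBS, where 34.5%, 25.8%, 31.9% and 36.7% of all genes passed. That scaling moved the median of all genes by 0.29 to 0.331. It turned Slco1a1 to 0.0913, 0.0489, 0.0635 and 0.222 in those 4 comparisons, and Abcb11 to 0.0317 in TTR REVERSIR against PBS. With TMM scaling and the 2 mitochondrial ribosomal RNAs left out, Slco1a1 stood at -0.231, -0.266, -0.251 and -0.105 there. The main fit gave it -0.233, -0.268, -0.253 and -0.108. Abcb11 in TTR REVERSIR against PBS then stood at -0.282, beside -0.285 in the main fit. Leaving out 1 library gave 0 to 1 genes in siRNA, TTR REVERSIR and siRNA with scrambled REVERSIR against PBS, the 1 being Slco1a1 without PBS replicate 3. Without 1 library, Baat in siRNA with scrambled REVERSIR against scrambled REVERSIR ranged from -0.231 to 0.000327. Relative to Cyp27a1 counts, Slco1b2 stood at -0.0299 in siRNA with TTR against siRNA with scrambled REVERSIR. The untested Slco1b2 value of TTR against scrambled REVERSIR also changed sign, to -0.0483 relative to Cyp27a1 and -0.00836 without TTR REVERSIR replicate 2. The cause was not tested. The replicate block changed no call of the 10 genes, and under it Slco1b2 in siRNA with scrambled REVERSIR against siRNA stood at -0.173. Over all genes, calls without 1 library ranged from 1 to 1365 in siRNA (292 with all libraries), 0 to 978 in TTR REVERSIR (78), 1 to 1142 in siRNA with scrambled REVERSIR (68) and 0 to 1151 in siRNA with TTR REVERSIR (88) against PBS, highest without PBS replicate 3 each time. DESeq2 gave 386, 155, 162 and 180, and the compared groups alone 1, 0, 7 and 1. Depth limits Cyp7a1, Cyp8b1 and Nr0b2 most, since no group held over 22 counts of any of them.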
